A study of Sus scrofa with 67 samples.

Results

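The count table held 25322 genes. In the pig ovary, 32 had a mean on day 3 of the oestrous cycle at least 2 times that of each other day. Of these, 9 also met the further limits given below and are described here. The mean levels of these 9 genes on days 0 and 9 differed by less than 2 times in all 3 tissues. All these means were taken with a small constant added as given below. The 9 genes were HBB, TMEM229A, ITPKA, PPFIA3, SYP, CASK, LIN7B and the Ensembl genes ENSSSCG00000007978 and ENSSSCG00000028682, which carry no symbol in the table used here and are called by their identifiers. They were chosen from the measured values. Counts were scaled to the total of the library as CPM (counts per 1000000 counts), means per tissue and day were taken with 1 CPM added, and the ovary mean of day 3 had to be at least 2 times that of each other ovary day, with at least 5 CPM in both day 3 libraries. The ratio of day 9 to day 0 had to lie between 0.5 and 2 in endometrium, ovary and oviduct, and the endometrium mean of day 12 had to be under 2.5 times that of day 9. The ovary levels on day 3 are therefore the criterion itself and are given as a description, without a test.

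The libraries came from Landrace × Yorkshire gilts that had cycled normally and received no treatment, with day 0 as the onset of oestrous behaviour. Endometrium freed of myometrium, the oviduct ampulla and 1 whole ovary per gilt were sampled every 3 days from day 0 to day 18, so an ovary library mixes follicles, corpora lutea, stroma and vessels in the proportions of that organ. In such bulk tissue, more cells of a type and more RNA per cell cannot be told apart. The ovary had 22 libraries, 3 on each of days 0, 6, 9 and 18, 4 on each of days 12 and 15, and only 2 on day 3, which carry the numbers 1 and 3 in the table. The endometrium and the oviduct had 22 libraries each, with 2 to 4 per day.

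Day 3 falls in the metoestrous period, when ovulation has emptied the large follicles and the granulosa and theca cells left behind luteinise and are invaded by capillaries to form corpora lutea. Several of the 9 genes encode proteins best known from synapses. CASK is a membrane-associated scaffold protein that binds LIN7 proteins and the cytoplasmic tails of neurexins and syndecans, LIN7B is one of these PDZ-domain partners, PPFIA3 (liprin-alpha-3) is a scaffold of the presynaptic active zone, and SYP (synaptophysin) is a membrane protein of small secretory vesicles that is also used as a marker of neuroendocrine cells. ITPKA is an actin-binding kinase that phosphorylates inositol trisphosphate, and HBB is the beta chain of haemoglobin, which belongs to red blood cells and their precursors.

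Total counts per library were between 8962103 and 13442083, and the 2 ovary libraries of day 3 held 10667102 and 11591301 counts. A count of 3, taken as the lowest detectable level, corresponded to 0.223 to 0.335 CPM, which covers counting error only. The labelled tissues were checked against markers. OVGP1, the oviductal glycoprotein, was between 1141 and 203311 CPM in the oviduct libraries, and CYP11A1, which starts steroid synthesis, was between 167 and 9045 CPM in the ovary, against at most 7.70 CPM in the endometrium and 232 CPM in the oviduct. Of the oocyte genes, GDF9 and ZP2 did not mark the ovary, whereas ZP3 was highest there. GDF9 had medians of 18.1 CPM in the ovary, 34.4 CPM in the endometrium and 40.9 CPM in the oviduct, and the median of ZP2 was lower in the ovary (0.799 CPM) than in the endometrium (1.12 CPM) or the oviduct. ZP3 was at 0.0792 to 75.7 CPM in the ovary (median 3.54 CPM), and at most 0.101 CPM in the endometrium and 0.270 CPM in the oviduct. OXT, the oxytocin gene of the luteal marker list, had a median of 0 in the ovary. OVGP1 was also found at 3.47 to 1971 CPM in ovary libraries. Luteal cell markers summed to 7791 and 13020 CPM in the day 3 ovaries and to 538 to 16200 CPM in the others, and granulosa cell markers to 3525 and 3902 CPM against 145 to 8528 CPM. Endothelial markers were at 508 and 850 CPM on day 3 against 573 to 1306 CPM. These sums rest on 4 of 7 luteal, 4 of 10 granulosa and 7 of 10 endothelial genes, the others having no row with that symbol. Single genes can make up much of a sum, as INHA of the granulosa list alone reached 8176 CPM in the ovary. The erythrocyte list, which holds the member HBB, is given below without it. Among the 74 pairs of libraries within a tissue and day, 0 were identical.

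The scaffold genes CASK, LIN7B and PPFIA3 were high in both day 3 ovaries. CASK was at 140 and 178 CPM in the ovary libraries 1 and 3 of day 3, and at 46.6, 62.7 and 107 CPM (lowest, median and highest) in the 20 ovary libraries of other days. Both day 3 libraries lay above all the others. LIN7B was at 22.1 and 20.9 CPM on day 3, against 5.64, 8.98 and 12.6 CPM elsewhere in the ovary, again without overlap. PPFIA3 was at 48.3 and 45.2 CPM, against 4.67, 15.9 and 23.8 CPM, and did not overlap either. As estimated by edgeR, the difference between ovary day 3 and day 0 on the log2 scale was 1.53 (SE 0.25) for CASK, 1.33 (SE 0.30) for LIN7B and 1.87 (SE 0.44) for PPFIA3. The 3 genes were chosen by their day 3 means, so these differences and the lack of overlap describe the choice and are given without a test. Over all 15638 genes tested in the ovary, 0.179% were called between these days at an adjusted p under 0.05 (edgeR), 0.147% as higher on day 3.

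SYP varied more between the day 3 libraries, and single libraries late in the cycle were high as well. It was at 28.9 CPM in library 1 and 12.8 CPM in library 3 of day 3. The other ovary libraries were at 1.28, 3.79 and 16.4 CPM (lowest, median and highest), and the highest of these, library 1 of day 18, exceeded the lower day 3 library. Library 4 of day 15 followed at 11.8 CPM. The groups thus overlapped, and the difference from day 0 was 2.49 on the log2 scale (SE 0.68).

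ITPKA was at 25.8 and 33.4 CPM in the day 3 ovaries and at 2.93, 8.36 and 17.3 CPM in the other ovary libraries. Its day 0 libraries were spread from 3.62 over 13.1 to 16.7 CPM, and the difference between day 3 and day 0 was 1.46 on the log2 scale (SE 0.68). TMEM229A, a transmembrane protein gene, was at 52.2 and 94.0 CPM on day 3, against 2.51, 13.6 and 25.9 CPM on the other days, a difference from day 0 of 2.63 (SE 0.62). ENSSSCG00000028682 was at 61.1 and 57.6 CPM on day 3, against 5.95, 19.4 and 46.9 CPM, a difference from day 0 of 2.005 (SE 0.59). For each of these 3 genes, both day 3 libraries lay above every other ovary library. The choice by day 3 means favours such a separation, which is therefore a description only.

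**Figure D1:**
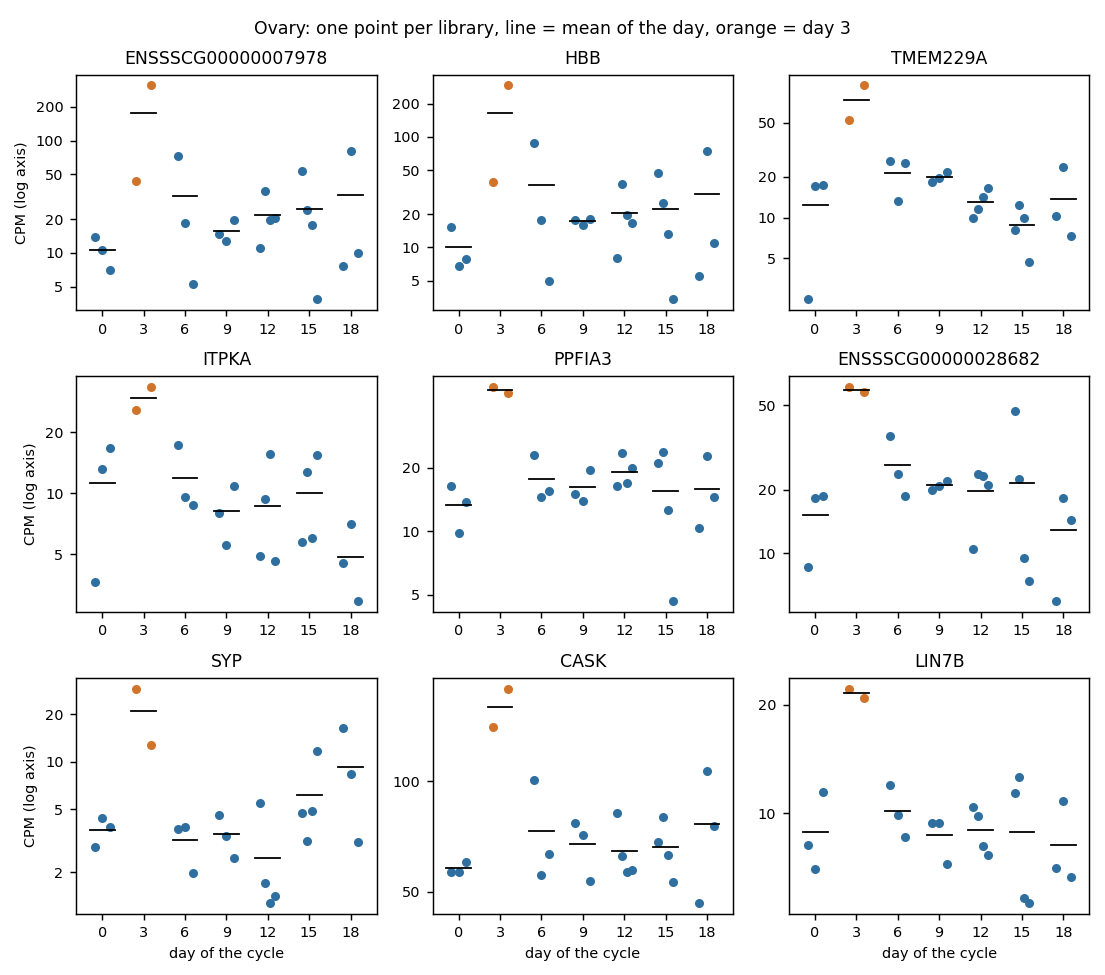
Level of each of the 9 genes in the 22 ovary libraries, in CPM on a log axis, against the day of the cycle. Each point is 1 library, the line is the mean of the day, and the 2 libraries of day 3 are orange. In CASK, LIN7B, PPFIA3, ITPKA, TMEM229A and ENSSSCG00000028682 both orange points lie above every other point, while in HBB, ENSSSCG00000007978 and SYP the lower orange point is within the range of other days. All 9 genes were chosen by their day 3 means, so the separation is a description.

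The 2 genes with the largest ratios, ENSSSCG00000007978 and HBB, were far higher in 1 of the day 3 libraries than in the other. HBB was at 38.6 CPM in library 1 and 293 CPM in library 3 of ovary day 3. The other ovary libraries were at 3.38, 16.3 and 88.2 CPM, and 3 of the 20 exceeded the lower day 3 value. ENSSSCG00000007978 was at 43.4 and 312.0 CPM on day 3 against 3.87, 16.1 and 80.5 CPM, with 3 of 20 above the lower value. The 7.59-fold gap between the day 3 libraries for HBB and the 7.19-fold gap for ENSSSCG00000007978 compare with 1.06 to 2.26 times in the other 7 genes. Differences from day 0 were 4.19 on the log2 scale for both, with SEs of 1.22 for HBB and 1.15 for ENSSSCG00000007978. Without library 3 of day 3, HBB and ENSSSCG00000007978 no longer met the criteria, and neither did CASK.

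HBB and ENSSSCG00000007978 moved together in each tissue. Over the 20 ovary libraries without day 3, whose day means also entered the choice of the genes, the Pearson correlation of their log2(CPM + 1) values was 0.978, the highest that HBB had with any of 15682 genes. The next genes for HBB were ALAS2, the erythroid enzyme of haem synthesis, with 0.934, and HBM, a further globin gene, with 0.884. For ENSSSCG00000007978 the values were 0.943 with ALAS2 and 0.914 with HBM. The correlation of HBB with ENSSSCG00000007978 was 0.993 over the 22 endometrium libraries and 0.962 over the 22 oviduct libraries. These libraries share their depth range and the days of the cycle, and the values are a description.

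Of the other red cell markers, ALAS2 and HBM were also higher in library 3 of day 3 than in library 1. ALAS2 was at 2.91 CPM in library 1 and 12.5 CPM in library 3, where the highest other ovary library had 4.39 CPM. HBM was at 0.375 CPM (4 counts) and 1.98 CPM (23 counts), against at most 1.22 CPM. SLC4A1, the red cell anion exchanger, was at 0 in both day 3 libraries and at no more than 0.097 CPM in the others. The sum of the markers other than HBB (ALAS2, HBM and SLC4A1) was 3.28 and 14.5 CPM on day 3 and between 0.0758 and 5.51 CPM (median 1.09) on the other days. Between days 3 and 0, ALAS2 differed by 4.06 (SE 1.28) and HBM by 3.64 (SE 1.41) on the log2 scale, both with an unadjusted p under 0.05 and neither called by edgeR, and DESeq2 called 1 of them. The part of red cells in the levels of HBB and ENSSSCG00000007978 was not tested.

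**Figure D2:**
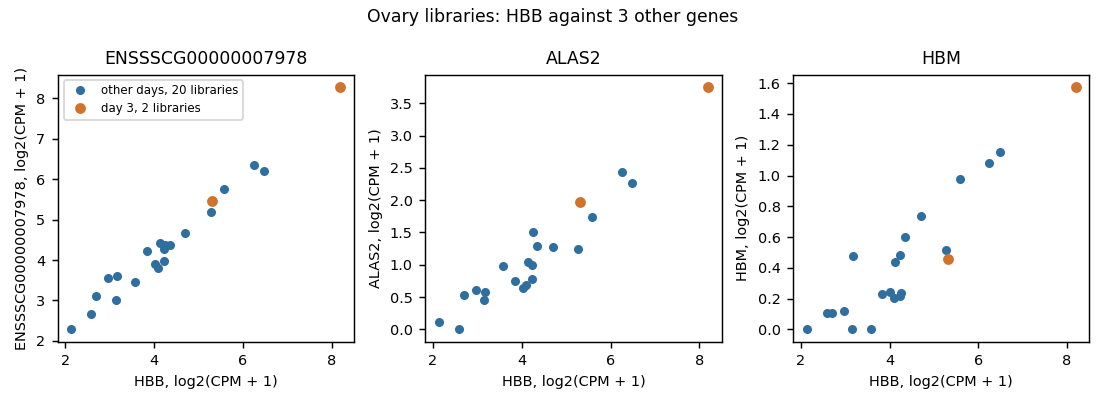
ENSSSCG00000007978, ALAS2 and HBM against HBB in the 22 ovary libraries, all on the log2(CPM + 1) scale, with the 20 libraries of other days in blue and the 2 of day 3 in orange. All 3 genes rise with HBB, day 3 library 3 is at the upper right in each panel, and day 3 library 1 lies among the libraries of other days.

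HBB was also measured in the other tissues. It reached 203 CPM in the endometrium, where the median of the 22 libraries was 72.2 CPM, and 61.3 CPM in the oviduct, where it was 12.8 CPM. On day 3, the library numbered 3 was the highest of its day in all 3 tissues, with 124 CPM in the endometrium and 21.6 CPM in the oviduct. The endometrium libraries numbered 1 and 2 had 90.0 and 9.92 CPM, and those of the oviduct 12.0 and 7.94 CPM. The labels do not say whether a number marks the same gilt in different tissues. Over the 21 pairs of libraries that share a day and a number, the deviations of HBB from the mean of its day correlated between endometrium and oviduct with 0.72, where the median of 11925 genes with a mean of at least 5 CPM was 0.12 and 1.88% were higher. The correlation was 0.26 between endometrium and ovary, where 32.4% of 11925 genes were higher. Between ovary and oviduct it was 0.35, where 15.8% of 11927 genes were higher.

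Single libraries held many of the next highest ovary values. Library 1 of day 6 was among the 3 highest of the 20 other libraries in 8 of the 9 genes, and in 9.02% of the 10965 genes with an ovary mean of at least 5 CPM. Library 2 of day 18 was so in 5 of the 9 genes and in 29.99% of all. HBB and ENSSSCG00000007978, which correlated at 0.978, count as 2 of the 9. In library 1 of day 6, CASK was at 101 CPM, TMEM229A at 25.9 CPM, ITPKA at 17.3 CPM and HBB at 88.2 CPM. In library 2 of day 18, CASK was at 107 CPM, TMEM229A at 23.6 CPM and HBB at 75.0 CPM. By day means, day 6 came next after day 3 in 5 genes, day 18 in 3 and day 12 in 1. Both libraries were also the highest of the 20 in ALAS2, with 3.83 CPM and 4.39 CPM.

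For ENSSSCG00000028682 the highest other ovary library was library 1 of day 15, at 46.9 CPM. This library also had the largest summed level of the oviduct and surface epithelium markers in the ovary, 2749 CPM. Library 2 of ovary day 0 had 2017 CPM of these markers, while ENSSSCG00000028682 was at 8.64 to 18.8 CPM in the ovary libraries of day 0. The 2 ovary libraries of day 3 had 21.5 and 493 CPM of these markers and 61.1 and 57.6 CPM of ENSSSCG00000028682. The part of this tissue in its level was not tested.

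Over the 20 ovary libraries of other days, the 36 pairs of members had correlations between -0.56 and 0.978, with a median of 0.36, and 27 were positive. The 21 pairs without HBB and ENSSSCG00000007978 lay between -0.56 and 0.68, with a median of 0.35, and 14 were positive. Several members moved with the red cell gene HBB, whose correlation was 0.79 with PPFIA3, 0.68 with ENSSSCG00000028682, 0.64 with CASK and 0.61 with LIN7B, but 0.29 with TMEM229A, 0.08 with ITPKA and -0.24 with SYP. The part of red cells in these correlations was not tested. Among the scaffolds, PPFIA3 and LIN7B had 0.68, CASK and LIN7B 0.60, and CASK and PPFIA3 0.52. The lowest value was that of PPFIA3 with SYP. In the endometrium the median of the 36 pairs was -0.04 and in the oviduct 0.05. PPFIA3 and LIN7B, which are direct neighbours in the RefSeq annotation of Sscrofa11.1, still had 0.57 in the endometrium and 0.52 in the oviduct, whereas CASK had correlations with LIN7B of 0.07 and 0.01 there.

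Outside the globin pair, the genes most like each member over the same 20 ovary libraries were different for every member. For TMEM229A the closest was NR5A2 (0.82), a nuclear receptor of steroidogenic cells. ITPKA was closest to HADHA (0.83), a mitochondrial enzyme of fatty acid oxidation. PPFIA3 was closest to POLDIP2 (0.89), SYP to KCTD20 (0.87) and ENSSSCG00000028682 to OPLAH (0.88), the enzyme that opens 5-oxoproline. For CASK and LIN7B the closest were ENSSSCG00000029885 (0.91) and ENSSSCG00000022892 (0.88).

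The wider families of these proteins were examined next. Of the CASK, LIN7 and liprin scaffolds and their membrane partners, a list added once the members were known, 12 non-members were tested in the ovary between day 3 and day 0, and 0 passed in either direction (edgeR). Their median difference was -1.21 on the log2 scale, 2 of 12 were above 0, and 4 had an unadjusted p under 0.05. Over all 15638 genes tested, the median was -0.06 and 2742 had an unadjusted p under 0.05. LIN7C, the paralog of LIN7B, differed by 0.37 (SE 0.30) and DLG1, another scaffold that binds LIN7 proteins, by 0.05 (SE 0.27). PPFIA4, a paralog of PPFIA3, differed by -1.37 (SE 0.41) and SDC3, a syndecan, by -1.12 (SE 0.30), and neither passed. A second tool, DESeq2, called 2 of the list as lower and 0 as higher, where it called 6.12% of all genes.

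For synaptic vesicles and their release, a list added in the same way, 10 genes other than SYP were tested. Of these, 0 passed (edgeR), 2 had an unadjusted p under 0.05, and the median difference was -0.27. RAB3A, the GTPase of secretory vesicles, was the exception in size: it was at 26.3 and 29.4 CPM on day 3 and between 4.61 and 26.9 CPM on other days, with a log2 difference of 2.42 (SE 0.50) and an adjusted p of 0.0523 (edgeR), and is named here after its value was seen. DESeq2 called 1 of these 10 genes. ITPKC, the tested paralog of ITPKA, differed by -0.44 (SE 0.48).

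The pathways that change when follicles luteinise were counted in the same comparison, without the members. Cholesterol synthesis had the largest median difference of the 7 pathways, 2.33 on the log2 scale, with 20 of 20 genes above 0, 14 at an unadjusted p under 0.05 and 0 called by edgeR. Steroid hormone synthesis had a median of 1.24 over 13 genes, with 4 at an unadjusted p under 0.05 and 0 called. NR5A2, the closest gene to TMEM229A, was at 1289 and 1493 CPM on day 3, and differed by 3.14 (SE 1.19, adjusted p 0.196, edgeR).

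Of the mitotic cell cycle genes, 38 of 39 were above 0, with a median of 0.86, and 0 had an unadjusted p under 0.05. Hypoxia and glycolysis had a median of 0.37 over 19 genes, angiogenesis -0.04 over 14, ovulatory response -0.49 over 13, and extracellular matrix and proteolysis -0.77 over 30. In these 4 lists, 6, 3, 3 and 8 genes had an unadjusted p under 0.05. In each of the 7 pathways 0 genes were called by edgeR. DESeq2 called 14 genes as higher and 5 as lower over all of them, where it called 6.12% of all genes. Those called as higher included 7 of cholesterol synthesis. Without library 1 of ovary day 12, edgeR called 12 genes of the 7 pathways, all as higher. The share of all genes called in that fit was not counted. Library 1 of ovary day 12 had a summed luteal marker level of 591 CPM, against 11648 to 16200 CPM in the other 3 ovaries of day 12. Its part in the number of calls was not tested.

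Across tissues, the members were unevenly distributed. TMEM229A was at 2.51 to 94.0 CPM in the ovary, but at 0 to 0.809 CPM in the endometrium and 0 to 0.756 CPM in the oviduct, where 11 and 16 of the 22 libraries held 3 counts or fewer. It did not pass the filter on low counts outside the ovary and was not tested there. ENSSSCG00000028682 had the opposite order, with 159 to 456 CPM in the oviduct, 33.6 to 120 CPM in the endometrium and 5.95 to 61.1 CPM in the ovary. The oviduct libraries did not overlap with those of either other tissue. SYP had medians of 3.86 CPM in the ovary, 2.54 CPM in the oviduct and 1.47 CPM in the endometrium, and only ovary libraries exceeded 4.26 CPM. CASK, LIN7B, PPFIA3, ITPKA and HBB overlapped between the 3 tissues. CPM values are shares of a library, and OVGP1 alone took up to 203311 CPM in the oviduct.

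**Figure D3:**
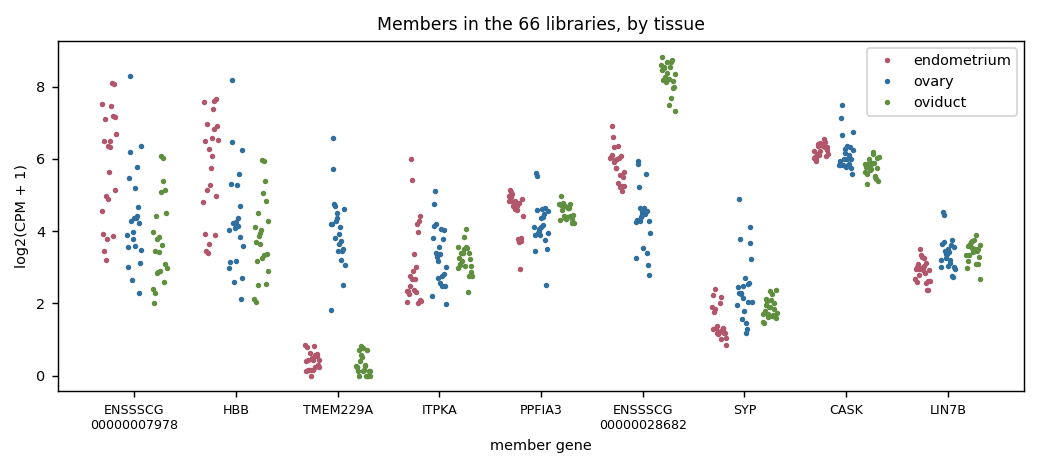
Level of the 9 genes in all 66 libraries on the log2(CPM + 1) scale, 1 point per library, with endometrium, ovary and oviduct in separate colours. TMEM229A is near 0 outside the ovary, ENSSSCG00000028682 is highest in the oviduct, and the other 7 genes overlap between tissues. Heights of different genes depend on gene length and are not comparable.

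The endometrium and the oviduct were used to ask whether the same genes change in the other reproductive tissues. There the levels on days 3, 6, 15 and 18, and day 12 in the oviduct, played no part in the choice of the genes. They were tested against day 0 with edgeR over all genes of the tissue. The day 0 levels did enter the choice, through the limits on the ratio of day 9 to day 0. The tests are therefore not independent of it, and the shares of all genes given beside the members come from genes without these limits. These comparisons share the day 0 libraries of a tissue. On day 3, the day of the ovarian maximum, 0 of the 8 tested members passed in the endometrium, where 0.339% of all genes did, and 0 of 8 passed in the oviduct, where 0.3% did. None had an unadjusted p under 0.05. DESeq2 also called 0 in both tissues, where it called 1.23% and 1.9% of all genes. Differences were small in CASK, with -0.10 (SE 0.14) in the endometrium and -0.24 (SE 0.17) in the oviduct. PPFIA3 differed by 0.00 (SE 0.33) and 0.14 (SE 0.21), and LIN7B by 0.23 (SE 0.24) and 0.36 (SE 0.27). SYP differed by 0.20 (SE 0.38) and 0.55 (SE 0.30).

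ITPKA rose in the endometrium on day 6. It was at 63.4, 42.1 and 5.44 CPM in the day 6 libraries and at 3.14, 4.08 and 4.04 CPM on day 0. All 3 libraries of day 6 were above those of day 0, but the third by little, and how many of all genes lacked overlap was not counted. The log2 difference was 3.46 (SE 0.84, adjusted p 0.00855, edgeR), and ITPKA was the only 1 of 8 members called, where 17.7% of all genes were called and 8.9% as higher. DESeq2 called 3 of the 8, where it called 21.7% of all genes, and the further 2 were CASK and LIN7B. The call held in all 22 fits without 1 library, with differences of 2.82 to 3.98. On day 15, ITPKA was at 17.4, 3.06, 14.7 and 18.3 CPM, so 3 libraries were high and 1 was at the day 0 level, and the difference of 2.01 (SE 0.77) had an adjusted p of 0.0754 (edgeR). On day 18 only library 1, at 20.5 CPM, was high.

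In the oviduct ITPKA stayed between 4.01 and 15.8 CPM throughout. Its difference from day 0 was -0.35 (SE 0.34) on day 6 and -0.57 (SE 0.28) on day 15, and neither passed. Tested in a joint fit of both tissues, the change in the oviduct minus that in the endometrium was -3.79 (SE 0.96, adjusted p 0.0107, edgeR) on day 6, where 9.07% of 16292 genes differed between the tissues, and -2.62 (SE 0.82, adjusted p 0.0368, edgeR) on day 15, where 10.1% did. The joint fit took all libraries as independent, although both tissues of a day can come from the same gilts.

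On endometrium day 15, CASK was higher and PPFIA3 lower than on day 0, 2 of 8 members called where 19.6% of all genes were, 9.95% as higher and 9.61% as lower. DESeq2 called 3 of 8, ITPKA among them, where it called 24.1%. CASK was at 92.4, 79.0, 87.7 and 66.4 CPM on day 15 against 63.9, 73.4 and 65.0 CPM on day 0, so the groups overlapped. Its log2 difference was 0.43 (SE 0.13, adjusted p 0.0259, edgeR). PPFIA3 was at 11.9, 26.7, 6.78 and 12.1 CPM on day 15 against 30.5, 27.3 and 34.3 CPM on day 0. Every day 15 library was below those of day 0, but that at 26.7 CPM by little. How many of all genes lacked overlap was not counted. The log2 difference of PPFIA3 was -0.95 (SE 0.31, adjusted p 0.0387, edgeR).

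Both calls were lost without library 1 or 3 of day 0 or library 1 or 3 of day 15, with adjusted p of 0.059 to 0.107 for CASK and 0.0872 to 0.139 for PPFIA3, and the PPFIA3 call also without library 4 of day 15 (adjusted p 0.0834). For CASK, the change on day 15 differed between oviduct and endometrium by -0.83 (SE 0.20, adjusted p 0.00727, edgeR), with a change in the oviduct of -0.35 (SE 0.16) that did not itself pass.

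**Figure D4:**
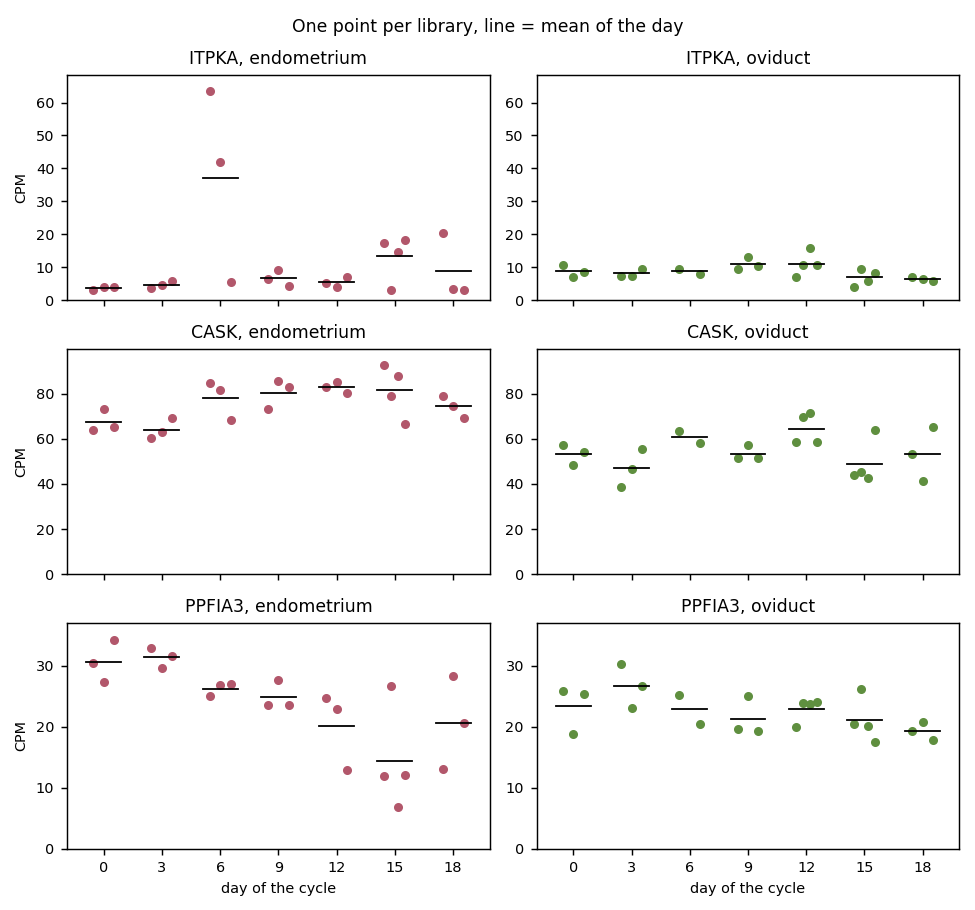
ITPKA, CASK and PPFIA3 in CPM in the endometrium and oviduct libraries against the day of the cycle, 1 point per library and a line at the mean of the day. Of the endometrium libraries of day 6, 2 are far above all others in ITPKA at 63.4 and 42.1 CPM, and PPFIA3 falls below its day 0 range in all 4 endometrium libraries of day 15.

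On endometrium day 18, 0 of 8 members passed where 0.189% of all genes did, and 2 had an unadjusted p under 0.05, as 15% of all genes did. These were SYP, at 1.28, 0.789 and 1.04 CPM against 2.73, 1.47 and 3.65 CPM on day 0, and ENSSSCG00000028682, at 44.3, 37.0 and 49.3 CPM against 63.9, 65.6 and 120 CPM. Neither group of 3 libraries overlapped with the 3 of day 0, but how many of all genes lacked overlap was not counted. The log2 differences were -1.29 (SE 0.41, adjusted p 0.168, edgeR) for SYP and -0.89 (SE 0.29, adjusted p 0.173, edgeR) for ENSSSCG00000028682. DESeq2 called 0 members on that day, and 2.35% of all genes.

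In the oviduct 0 of 8 members passed on any of the 5 days tested. The share of all genes that passed was 2.16% for day 6, 16% for day 12, 5.8% for day 15 and 0.23% for day 18. DESeq2 called 0 members on days 6, 12 and 18, where it called 5.6%, 20.4% and 5.66% of all genes. The members with an unadjusted p under 0.05 numbered 1 of 8 for day 6, 2 for day 12, 4 for day 15 and 1 for day 18, where 17.7%, 31.2%, 21.7% and 19.4% of all genes had one. ENSSSCG00000028682 was below day 0 on all 5 days, with log2 differences from -0.25 to -0.76, and had an unadjusted p under 0.05 on 4 of them. Its oviduct libraries were at 389, 456 and 350 CPM on day 0, 307 and 280 CPM on day 6, and 256, 159 and 329 CPM on day 18, without overlap between day 0 and these days. On days 3, 12 and 15 the ranges were 292 to 371, 180 to 410 and 207 to 429 CPM, which overlap with day 0. Day 6 had only 2 libraries, and how many of all genes lacked overlap with day 0 was not counted.

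HBB and ENSSSCG00000007978 had the widest errors in the oviduct. HBB was at 60.1, 40.9, 4.78 and 27.6 CPM on day 15 against 3.39, 16.3 and 3.11 CPM on day 0, a difference of 1.98 (SE 0.81, adjusted p 0.153, edgeR). ENSSSCG00000007978 differed by 2.14 (SE 0.85, adjusted p 0.147, edgeR), and was the 1 member that DESeq2 called there, where it called 9.72% of all genes.

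**Figure D5:**
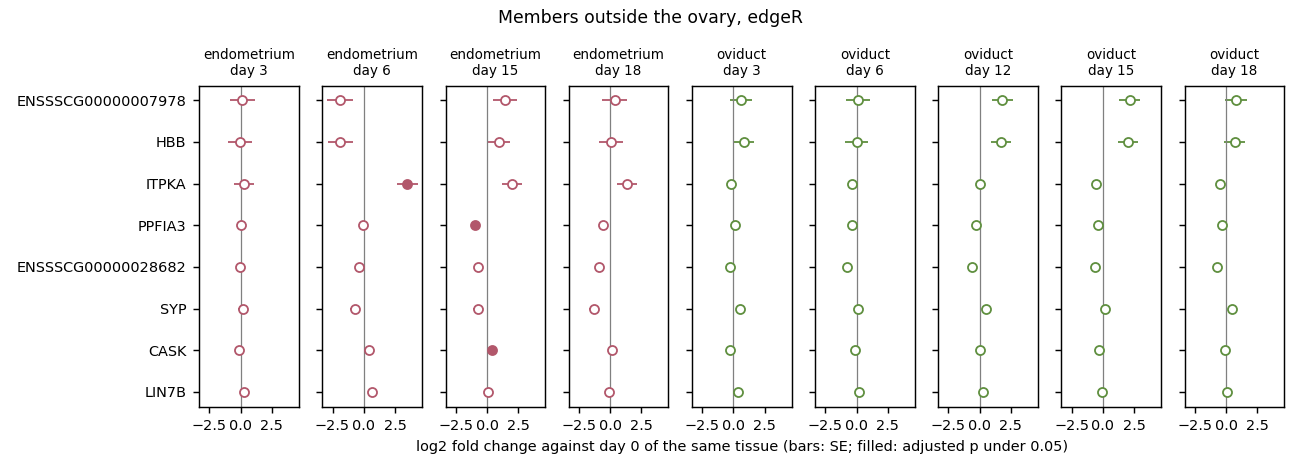
Log2 fold change of 8 members against day 0 of the same tissue in the endometrium on days 3, 6, 15 and 18 and in the oviduct on days 3, 6, 12, 15 and 18, with bars for the SE (edgeR). Filled points have an adjusted p under 0.05: ITPKA on endometrium day 6, and CASK and PPFIA3 on endometrium day 15. TMEM229A was not tested outside the ovary.

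The limits of the choice cut through a continuous range. CASK and LIN7B were just inside, with ovary day 3 at 2.08 and 2.02 times the next highest day. ENSSSCG00000007843, at 1.999 times, and TNS3, at 1.986 times, were just outside. Of 32 genes with day 3 at 2 times every other ovary day, 27 had 5 CPM in both libraries, and 18 of these were left out because day 9 differed from day 0 beyond the limits in at least 1 tissue, 6 of them through the ovary alone. The genes left out, which are named after their values were seen, included SLC16A3, a lactate transporter, with a ratio of 4.36 and 225 and 138 CPM in the day 3 libraries. HSD11B2, which inactivates cortisol, had a ratio of 3.63 with 63.5 and 55.3 CPM, and the desaturase FADS1 a ratio of 2.26 with 635 and 529 CPM. The 9 genes are thus part of a wider day 3 set. In these 9 genes the means of days 0 and 9, with 1 CPM added, differed by less than 2 times in each tissue.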

How the data were processed

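The authors deposited whole-number counts per Ensembl gene for 66 libraries, made after trimming of the reads and mapping to the pig genome. The labels name FastQC, featureCounts, Cufflinks, Cuffdiff and edgeR. Whether counting used strand is not given in the sources used here, and reads of overlapping genes cannot be told apart. The labels list 67 samples, 0 columns were left unused, and groups came from tissue and day in the labels. The study's methods describe 3 gilts per day, while groups hold up to 4 libraries. The labels do not tie libraries to gilts, so whether 2 libraries of a group share a gilt is not known, and p-values measure only the spread between libraries. Symbols came from a table that matched 11804 identifiers.

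The members and the gene lists were chosen with earlier results of these data known. All 9 members are named, with the 2 genes just outside the limit and, in each list, examples. Each tissue was fitted in edgeR 4.0.16 (R 4.3.3) with TMM, filterByExpr and robust glmQLFit, day as a factor. The glmQLFTest of each day against day 0 was adjusted by Benjamini-Hochberg over all genes, called under 0.05. Fold changes are log2. DESeq2 1.42.0 was an alternative, and the steps were tested on simulated data. Figures were drawn with matplotlib 3.10.9. The study's methods describe each gilt as sampled on 1 day, so libraries of different days cannot pair by gilt. Between days, libraries with the same number had a median correlation of deviations of -0.02 in each tissue, with a range of -0.57 to 0.69 in the ovary. Numbers were not taken as pairs in the main fits, and a pairing of tissues within a day was not modelled.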

Additional observations from a re-analysis of the deposited data

Results flagged for a closer look

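The members were examined in 45 combinations of a gene and a group of 4 libraries, which share the same few groups. In 4 of them, the gap of a library to its neighbour was too wide for its group by Dixon's criterion, which chance alone meets in about 1 of 20. SYP was at 5.46 CPM in library 1 of ovary day 12, above the other 3. PPFIA3 was at 19.97 CPM in library 1 of oviduct day 12, below the other 3. CASK was at 63.6 CPM in library 4 of oviduct day 15, above the other 3. TMEM229A was at 0.643 CPM in library 3 of oviduct day 15, where the other 3 libraries were at 0.

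The change against day 0 differed between oviduct and endometrium in 3 tests of the difference itself (edgeR, both tissues in 1 fit, chosen after seeing the data). That fit did not pair the tissues of a gilt. For ITPKA the oviduct change minus the endometrium change was -3.79 on day 6 (adjusted p 0.0107) and -2.62 on day 15 (adjusted p 0.0368), and for CASK -0.83 on day 15 (adjusted p 0.00727). In the endometrium, 3 of 3 libraries of day 6 and 3 of 4 of day 15 were above the day 0 range for ITPKA.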

How the results depend on the processing

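With a ratio of 3 in place of 2, 3 genes met the criteria, and without 1 library between 8 and 14 did. Leaving out either ovary library of day 3 gave 14, of which 7 (without library 1) and 6 (without library 3) were among the 9. TMM library sizes kept 5 of the 9, losing HBB, CASK, LIN7B and ENSSSCG00000028682, and medians kept 7, losing HBB and ENSSSCG00000007978. TMEM229A was kept in every alternative run. Members called on endometrium day 6 numbered 3 by DESeq2's Wald test and 1 to 2 without 1 library. On endometrium day 15 they numbered 0 with only the 2 groups and 0 to 4 without 1 library. On oviduct day 6, 1 was called with only the 2 groups. On oviduct day 15, 1 was called by DESeq2 and 0 to 1 without 1 library. In the pathway lists, DESeq2 called 19 genes, and 0 to 12 were called without 1 library, 12 without library 1 of ovary day 12 and 2 without library 2 of ovary day 15. For fits other than the main ones and DESeq2's Wald test, here and in the next paragraph, the share of all genes called was not counted. These counts of members and list genes therefore cannot be set against a share of all genes. The causes were not tested.

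With the library number as a replicate block, 2 members were called on endometrium day 6 and 1 on day 15, and PPFIA3 was lost (adjusted p 0.058, edgeR). The numbers do not pair libraries of different days, and the block changed no other count of members. DESeq2's size factors and the absence of a filter on low counts kept every count. The 2 ovary libraries on day 3 limit the precision of every ovary value.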
